A study of Bos taurus with 16 samples.

Results

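The fatty acid desaturase genes FADS1, FADS2, FADS3, SCD and SCD5 were followed in bovine blastocysts from cows on 3 oilseed diets. They were chosen by symbol in the array's probe-to-gene table, because their enzymes act on the fatty acids by which the diets differed. The rule uses no measured value, but the genes were chosen with earlier results of these data known. All 5 genes were on the array, with 7 of its 43794 probes: 2 each for FADS1 and FADS3 and 1 each for FADS2, SCD and SCD5. The array carried 15216 gene symbols in all. The mothers were non-lactating Holstein cows fed rolled oilseed for at least 35 days: 8 cows had flax (FLX), a source of α-linolenic acid, 7 had sunflower (SUN), a source of linoleic acid, and 8 controls had canola (CAN), in which oleic acid is high. All cows were synchronised, superstimulated with follicle-stimulating hormone and inseminated with semen of 1 sire, and embryos were flushed at day 7.5. Embryos of a cow at 1 stage were pooled, RNA came from blastocysts, and the sources used here do not give the cows behind a replicate. Each of 4 replicates of FLX, and each of 4 of SUN, was set against a CAN sample on 2 arrays with exchanged dyes, 16 arrays in all.

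Desaturases put a double bond into an acyl-CoA, taking electrons from cytochrome b5 and its reductase. FADS2, the delta-6 desaturase, takes the first step on both linoleic and α-linolenic acid, so the acids of the sunflower and the flax diet compete for it. After elongation FADS1, the delta-5 desaturase, completes arachidonic and eicosapentaenoic acid. SCD, the delta-9 desaturase, makes oleic acid from stearic acid, and SCD5 is another delta-9 enzyme. FADS3 lies beside the other FADS genes and acts on sphingoid bases in other mammals. In rodent liver, polyunsaturated fatty acids lower the transcription of Fads2 and Scd1, in part through the transcription factor SREBP-1. The array measured transcripts only, and fatty acids of the embryos were not analysed here.

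Values are log2 ratios of diet over CAN, the 2 arrays of a replicate averaged. They assume that the deposited ratio was Cy5 over Cy3, the likely direction, and that its log base was 2. With the opposite direction every sign turns. The files hold ratios and no levels, so neither the abundance of a transcript nor the presence of a cell type could be read. Replicates of 1 number in FLX and SUN name the same CAN sample, so the diets share their controls. Over all probes the array and its dye exchange correlated at −0.616 to −0.165 as deposited, and precision is limited by how many arrays there were. limma, with p-values adjusted over all genes or all probes, called 0 genes in FLX vs CAN, SUN vs CAN and FLX vs SUN, 0.0% of the 15216 tested in each. An unadjusted p under 0.05 was reached by 3.15% of genes in FLX, 6.18% in SUN and 2.09% in FLX vs SUN, and by 0 of the 5 desaturases in each. With the replicate number as a block, 5.61% of genes reached it in FLX vs SUN, and FADS2 was the 1 desaturase that did (adjusted p = 0.840 in limma). In whole blastocysts, fewer cells of a type and less RNA per cell cannot be told apart.

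FADS2 had the lowest FLX mean of the 5 genes. Its probe EMBV3_26123 stood at −0.81, −0.49, −0.92 and −0.038 in FLX replicates 1 to 4, and at 0.20, 1.19, −0.76 and 0.60 in SUN replicates 1 to 4. The FLX replicates were all below 0, replicate 4 barely so, while 3 of the 4 SUN replicates were above 0, and the diets overlapped through SUN replicate 3. A negative value in 4 of 4 replicates was found for 5.36% of all genes in FLX. The FLX mean was −0.56 ± 0.40 (SD, n = 4), which is 1.48-fold lower than CAN, with a 95% interval of 0.436 to 1.05 for the fold of FLX over CAN. The SD of FADS2 between replicates, pooled over both diets, was 0.643, which 2.39% of all probes exceeded (median 0.149). By size alone, with no account of this spread, 0.191% of genes had a FLX mean as far from 0. The limma test did not call it (adjusted p = 1.00 in limma). The SUN mean was 0.31 ± 0.82 (n = 4; fold interval 0.80 to 1.92; adjusted p = 0.841 in limma), and it was 0.67 without SUN replicate 3 (adjusted p = 0.364 in limma) and 0.016 without SUN replicate 2.

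**Figure D1:**
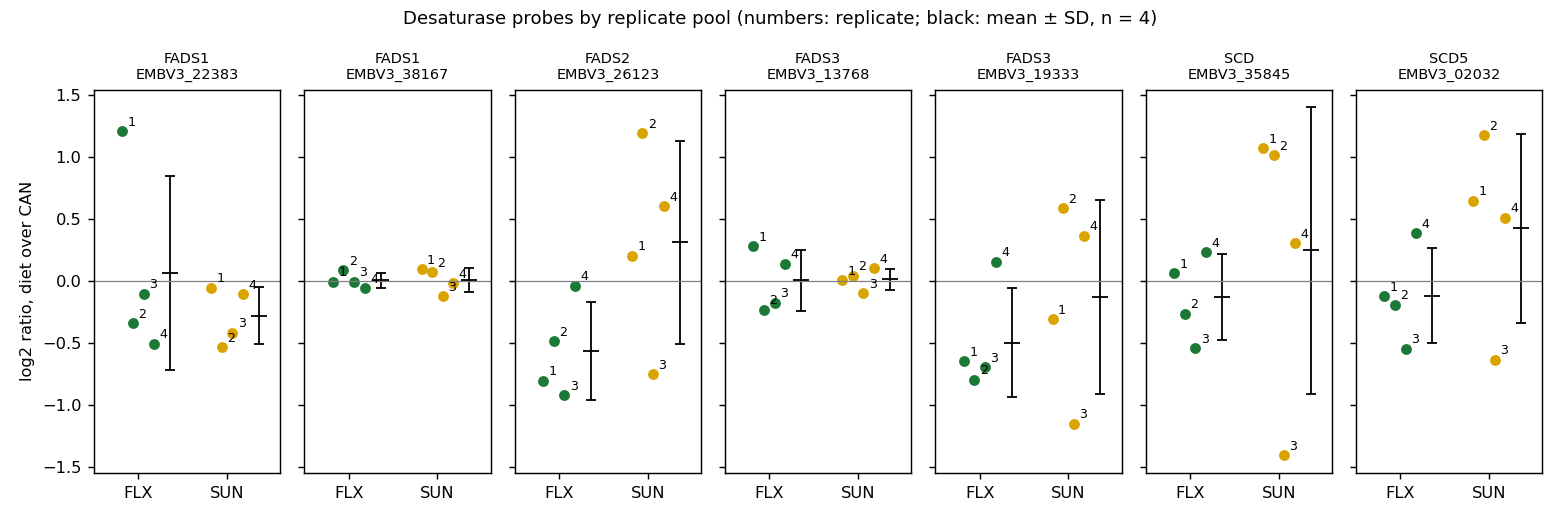
Log2 ratio of diet over CAN (vertical axis) for each of the 7 desaturase probes in the 4 FLX and the 4 SUN replicates. Points carry the replicate number and the black bars give mean ± SD. FADS2 lies below 0 in all FLX replicates, and SUN replicate 3 is the lowest SUN point of FADS2, FADS3 EMBV3_19333, SCD and SCD5.

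FADS1 differed between its 2 probes. Probe EMBV3_22383 stood at 1.21, −0.34, −0.10 and −0.51 in FLX replicates and at −0.057, −0.54, −0.42 and −0.11 in SUN replicates. One FLX replicate was thus high and the other 7 values were negative. In SUN 7.14% of all probes were negative in 4 of 4 replicates. Its mean was 0.063 ± 0.78 in FLX and −0.28 ± 0.23 in SUN (n = 4 each), and without FLX replicate 1 the FLX mean was −0.32. Probe EMBV3_38167 stayed between −0.057 and 0.084 in FLX and between −0.12 and 0.093 in SUN. The mean of both probes was 0.034 ± 0.39 in FLX (adjusted p = 1.00 in limma) and −0.14 ± 0.14 in SUN (adjusted p = 0.853 in limma). Over the 8 replicate values the probes correlated at 0.026. Which of them measures FADS1 cannot be told from these files, and in the RefSeq annotation of assembly ARS-UCD2.0 the spans of FADS1 and FADS2 overlap on chromosome 29.

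The 2 probes of FADS3 differed too. Probe EMBV3_19333 stood at −0.65, −0.80, −0.70 and 0.15 in FLX replicates, and at −0.31, 0.59, −1.16 and 0.36 in SUN replicates. In FLX 3 replicates lay close together and well below 0 with replicate 4 apart, whereas SUN was split evenly between signs. Its means were −0.50 ± 0.44 in FLX (adjusted p = 1.00 in limma) and −0.13 ± 0.78 in SUN (adjusted p = 0.937 in limma, n = 4 each). Without SUN replicate 3 the SUN mean of this probe was 0.21. Probe EMBV3_13768 stood at 0.0029 ± 0.25 in FLX and 0.012 ± 0.085 in SUN. The mean of both probes was −0.25 ± 0.30 in FLX (adjusted p = 1.00 in limma) and −0.059 ± 0.43 in SUN (adjusted p = 0.953 in limma).

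SCD, which makes oleic acid, was the most spread of the 5 genes in SUN. Its probe EMBV3_35845 stood at 0.059, −0.26, −0.55 and 0.23 in FLX replicates, and at 1.07, 1.02, −1.41 and 0.30 in SUN replicates. FLX replicates lay on both sides of 0, while in SUN replicates 1 and 2 were far above 0 and replicate 3 far below it. The means were −0.13 ± 0.34 in FLX (fold interval 0.512 to 1.63; adjusted p = 1.00 in limma) and 0.25 ± 1.16 in SUN (fold interval 0.664 to 2.12; adjusted p = 0.911 in limma). Without SUN replicate 3 the SUN mean was 0.80 with an adjusted p = 0.281 in limma, without SUN replicate 1 it was −0.031, and without SUN replicate 2 it was −0.012. The intervals hold changes of both directions, so they do not show that SCD was alike in the diets and CAN.

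SCD5 had the highest SUN mean of the 5 genes. Its probe EMBV3_02032 stood at −0.13, −0.19, −0.55 and 0.38 in FLX replicates, and at 0.65, 1.18, −0.64 and 0.51 in SUN replicates. Most FLX values were moderately negative, while SUN values were high except for replicate 3. The FLX mean was −0.12 ± 0.38 (adjusted p = 1.00 in limma) and the SUN mean was 0.42 ± 0.76 (1.34-fold; fold interval 0.889 to 2.02; adjusted p = 0.814 in limma). By size alone, with no account of spread, a mean as far from 0 in SUN was found for 1.33% of genes. Without SUN replicate 3 the SUN mean was 0.78 (adjusted p = 0.281 in limma), and without SUN replicate 2 it was 0.17.

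The difference FLX minus SUN asks whether the ratio over CAN depended on the kind of polyunsaturated oilseed, and within a replicate number CAN cancels if the shared name marks the same RNA. FADS2 was lower in FLX than in SUN at every number, by −1.01, −1.68, −0.17 and −0.64 at numbers 1 to 4. A negative difference at 4 of 4 numbers was found for 7.08% of all genes. The mean difference was −0.87 ± 0.64 (SD of the differences by number, n = 4), a 1.83-fold lower ratio in FLX. Its 95% interval of 0.293 to 1.01 comes from the fit without the block, which leaves out the pairing by number. By size alone, with no account of spread, 0.131% of genes had a difference as large. limma did not call it (adjusted p = 1.00 in limma). With the replicate number as a block, its unadjusted p moved from 0.0541 to 0.00743 and its adjusted p was 0.840 in limma. The block moved the count of genes at an unadjusted p under 0.05 from 318 to 853.

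SCD5 had differences of −0.77, −1.37, 0.087 and −0.13 at numbers 1 to 4, with a mean of −0.54 ± 0.66. SCD had −1.01, −1.28, 0.87 and −0.073, with a mean of −0.38 ± 0.98. Both delta-9 genes were thus clearly lower in FLX at numbers 1 and 2, and stood near or above 0 at numbers 3 and 4. In both diets numbers 1 and 2 shared a slide, and numbers 3 and 4 shared another. A split by slide cannot be told apart from this. FADS3 had −0.032, −0.83, 0.19 and −0.085 (mean −0.19 ± 0.44), a difference carried by number 2. FADS1 had 0.58, 0.10, 0.22 and −0.22 (mean 0.17 ± 0.33), the only positive mean of the 5, but it was −0.018 without FLX replicate 1, 0.034 without number 1 and −0.024 with CAN in Cy5 alone. None was called (adjusted p = 1.00 in limma for each, from the fit without the block, which leaves out the pairing by number). With the replicate number as a block none of these genes was called either. Without number 3 in both diets the mean differences were −1.11 for FADS2, −0.79 for SCD and −0.76 for SCD5, with adjusted p = 1.00 in limma. Without number 2 in both diets the FADS3 difference was 0.024, that of SCD −0.074 and that of SCD5 −0.27. Without SUN replicate 2 alone the FADS2 difference was −0.58.

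**Figure D2:**
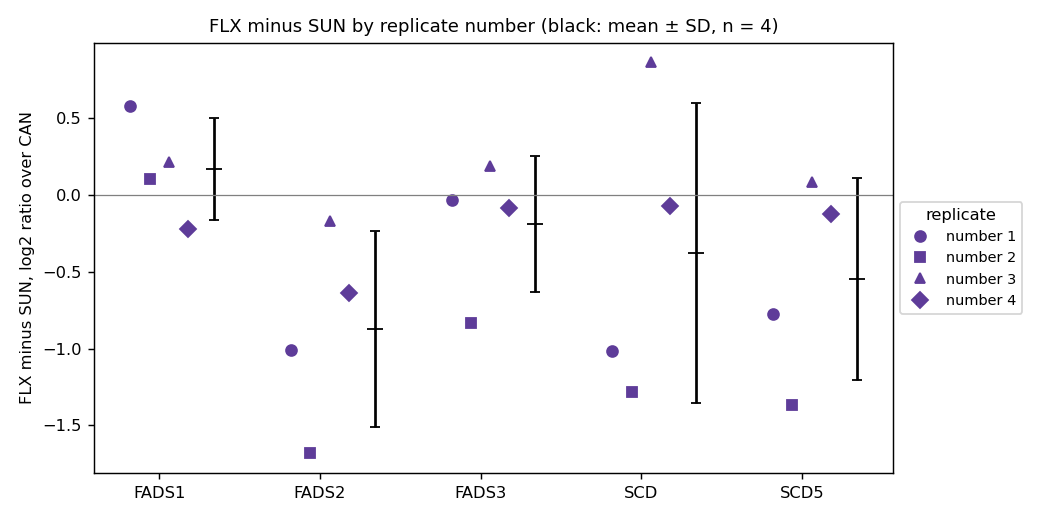
FLX minus SUN in log2 ratio over CAN (vertical axis) at each of the 4 replicate numbers, for the gene means of the 5 desaturases, with mean ± SD in black. FADS2 is below 0 at all 4 numbers, while SCD and SCD5 are low at numbers 1 and 2 and reach 0.87 and 0.087 at number 3.

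Averaged over both diets, with FLX and SUN of 1 number counted once, the means over CAN were −0.052 for FADS1, −0.13 for FADS2, −0.15 for FADS3, 0.058 for SCD and 0.15 for SCD5. SDs ran from 0.24 to 0.70 (n = 4), and none passed (adjusted p = 1.00 in limma), nor did any of all genes tested (0.0%). FADS2 was split evenly in sign over the 4 numbers: its FLX and SUN values had opposite signs at numbers 1, 2 and 4 and were both negative at number 3. Without number 3 the means were 0.40 for SCD, 0.40 for SCD5 and 0.11 for FADS2 (adjusted p of 0.695 or more in limma). The SCD mean was negative without number 1 (−0.11), number 2 (−0.049) or number 4 (−0.012), and the FADS1 mean was −0.17 without number 1.

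The SD between replicates of each probe was set beside the error estimated from exchanged dyes. SCD had an SD between replicates of 0.855, pooled over both diets, against 0.0419 for the error of a replicate value estimated from its 2 arrays. Only 0.888% of all probes had a larger SD between replicates. The ratio of both SDs was 20.4 for SCD, 6.83 for FADS2, 6.02 for FADS3 probe EMBV3_19333, 4.05 for FADS1 probe EMBV3_22383 and 3.9 for SCD5, against a median of 1.37 over all probes. The values of the 2 dye orientations correlated over the 8 replicates at 0.996 for SCD, 0.944 for FADS2, 0.935 for SCD5 and 0.933 for FADS3 probe EMBV3_19333, where the median probe had 0.26. FADS1 probe EMBV3_22383 had a correlation of 0.765. The other probes did not repeat: FADS1 probe EMBV3_38167 correlated at −0.319 and FADS3 probe EMBV3_13768 at −0.168, with ratios of 0.88 and 0.949. EMBV3_38167 had an SD between replicates of 0.0803, which 88.8% of probes exceeded. EMBV3_13768 had 0.185, above the median of 0.149 over all probes, and its FLX mean was 0.32 on the arrays with CAN in Cy3 and −0.31 on those with CAN in Cy5. These correlations describe arrays that share CAN samples between the diets.

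**Figure D3:**
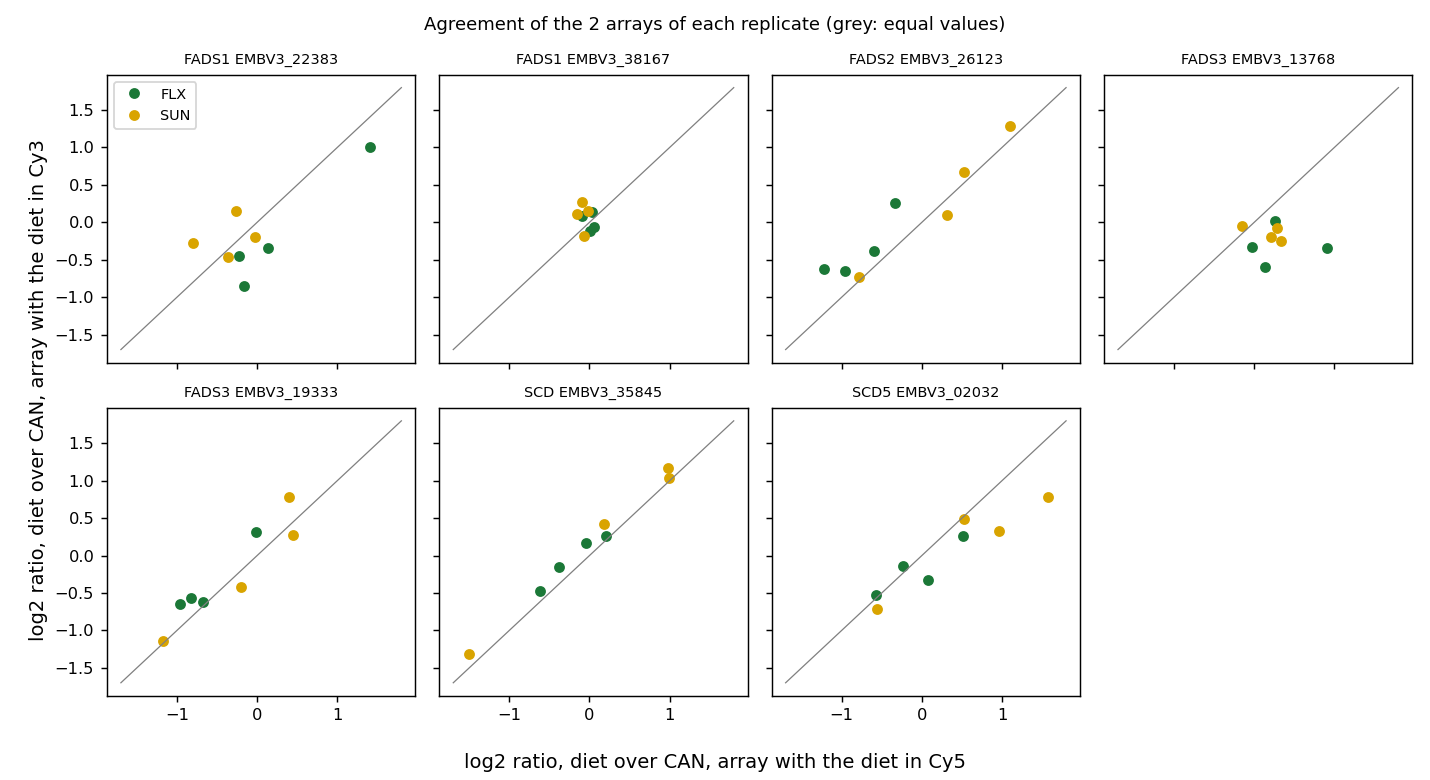
Each point is 1 replicate, with its log2 ratio over CAN on the array with the diet in Cy5 (horizontal axis) and on the array with the diet in Cy3 (vertical axis), in 1 panel per probe. SCD follows the line of equal values from −1.51 to 0.99 on the horizontal axis, whereas FADS1 EMBV3_38167 and FADS3 EMBV3_13768 form clouds.

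**Figure D4:**
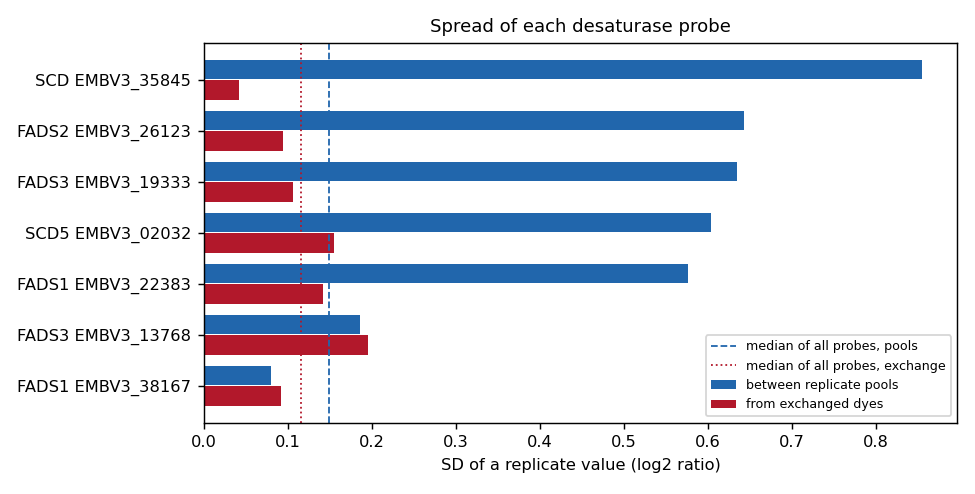
SD of a replicate's log2 ratio between replicates within a diet (blue) and as estimated from exchanged dyes (red), for each desaturase probe, with the medians of all probes as broken lines. The blue bars of SCD, FADS2, FADS3 EMBV3_19333, SCD5 and FADS1 EMBV3_22383 exceed 0.57, while the other probes stay below 0.19.

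FADS2, FADS3, SCD and SCD5 varied together from replicate to replicate. Over the 8 replicate values, which share 4 CAN names, FADS2 correlated with SCD5 at 0.947, with FADS3 at 0.845 and with SCD at 0.766, and SCD with SCD5 at 0.917. Of all other genes, 0.125% were closer to FADS2 than SCD5 was, 1.88% than FADS3 was and 4.50% than SCD was. For SCD, 0.486% were closer than SCD5 was. FADS1 stood apart, with correlations of −0.345 to 0.124 to the other 4. At number 3 FADS2, FADS3 EMBV3_19333, SCD and SCD5 were negative in both diets, at −0.92, −0.70, −0.55 and −0.55 in FLX and at −0.76, −1.16, −1.41 and −0.64 in SUN. Since both name the same CAN sample, high transcript levels in that CAN sample and low levels in both diet samples cannot be told apart. SUN replicate 3 was the lowest of the 4 SUN replicates for each of these probes.

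Genes with the nearest pattern over the 8 values were taken by the highest Pearson correlation, as a description. For FADS2 they were ABHD14B (0.978), the glutathione transferase GSTP1 (0.978) and SLC35C2 (0.977). For SCD they were SEPTIN8 (0.989), the amino acid transporter SLC36A2 (0.982) and DUSP6, a phosphatase of ERK (0.981). For SCD5 they were the proteoglycan SDC4 (0.979), NLRX1 (0.978) and CYB5R3, the reductase that passes electrons to cytochrome b5 and so to desaturases (0.975). For FADS3 they were SFRP1 (0.974), the adenosine deaminase ADA (0.962) and the fucosyltransferase FUT8 (0.956). The FADS1 mean was nearest to LOC508153 (0.996), TCHH (0.994) and SP9 (0.993), which all shared its high FLX replicate 1. TCHH stood at 1.28 and SP9 at 1.26 there.

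Cell type markers were read beside the desaturases. For the trophectoderm, the outer cell layer of the blastocyst, the median of its 11 measured markers (of 12) was −0.040, −0.15, −0.26 and 0.16 in FLX replicates, and 0.10, 0.73, −0.30 and 0.17 in SUN replicates, highest in SUN replicate 2 and lowest in SUN replicate 3. The FADS3 mean and SCD5 were also highest in SUN replicate 2 and lowest in SUN replicate 3. SUN replicate 2 had the widest ratios over all probes. The SDs of its 2 arrays were 0.433 and 0.435, against 0.233 to 0.355 on the other arrays. SCD was lowest in SUN replicate 3, but highest in SUN replicate 1. FADS2 was highest in SUN replicate 2, but lowest in FLX replicate 3, and the FADS1 mean was highest in FLX replicate 1. Of these markers 8 were negative in FLX, 3 in SUN and 10 in FLX minus SUN, against 7489, 7460 and 7781 of all 15216 genes. The median in FLX minus SUN was −0.24, and it was −0.082 without SUN replicate 2 and −0.39 without SUN replicate 3. The 7 measured inner cell mass and epiblast markers lay between −0.26 and 0.19 in their replicate medians, lowest in SUN replicate 2. In that list NANOG, a pluripotency factor named after its values were seen, stood at −2.19, 2.63, −1.11 and 1.82 in FLX replicates and at 0.35, 5.34, −0.30 and 1.51 in SUN replicates, with means of 0.29 ± 2.30 and 1.72 ± 2.52. NANOG was also highest in SUN replicate 2, and its difference FLX minus SUN was −1.44 ± 1.45 (adjusted p = 1.00 in limma). NANOG was the lowest gene of its list in that difference. The list had a median of 0.0066 there, with 5 of 7 genes positive, against 7435 of all 15216 genes. The 7 hypoblast markers lay between −0.11 and 0.073. The 6 measured markers of uterine epithelium and fluid (of 7) were low at number 3, at −0.54 in FLX and −0.61 in SUN, and between −0.032 and 0.22 elsewhere. The 8 cumulus and granulosa markers had −0.35 in FLX replicate 3 and 0.32 in SUN replicate 2. Of these 8 markers 6 were negative in FLX, 1 in SUN and 7 in FLX minus SUN, where their median was −0.19. The shift in sign was thus not particular to the trophectoderm list. Blood markers lay between −0.094 and 0.14 and spermatozoa markers between −0.056 and 0.082. What part cell composition had in the desaturase values was not tested.

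**Figure D5:**
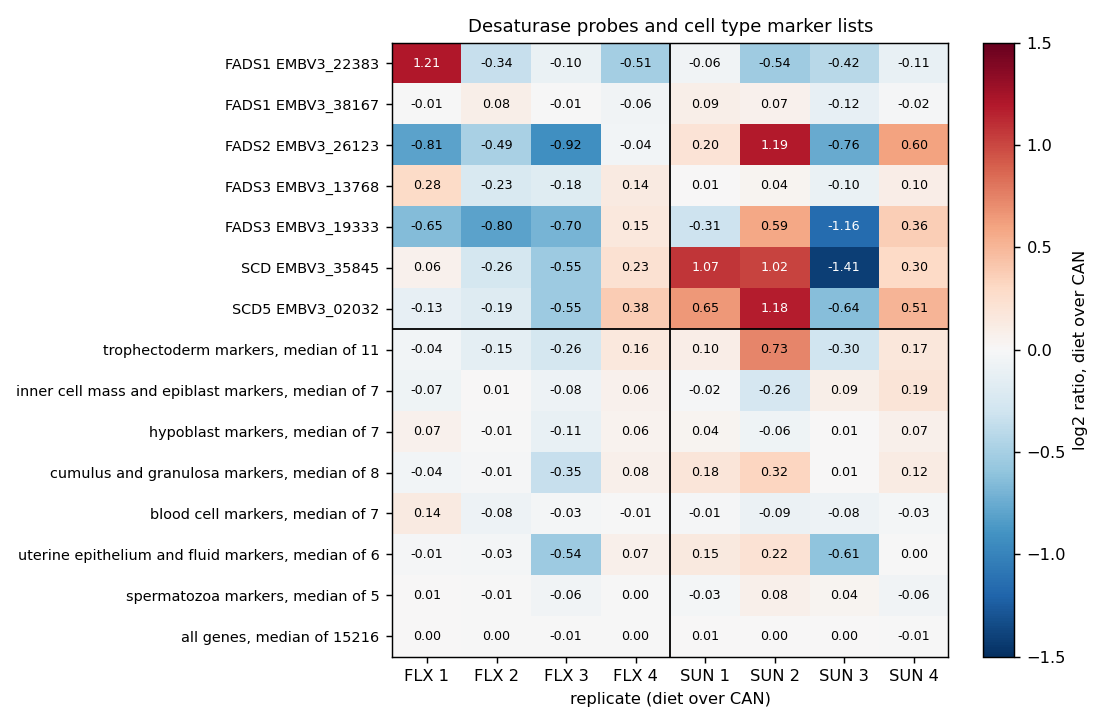
Log2 ratio over CAN (colour and printed value) of the 7 desaturase probes and the median of each cell type marker list, in 8 columns for the FLX and SUN replicates. The column of SUN replicate 2 is high and that of SUN replicate 3 low for FADS2, FADS3 EMBV3_19333, SCD, SCD5 and the trophectoderm median, while the medians of all genes stay within 0.01 of 0.

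The wider pathway was covered by 9 lists with 72 measured genes. limma called 0 of them in each comparison. In FLX 34 were positive and 38 negative, with 3 at an unadjusted p under 0.05 (4.17%, against 3.15% of all genes). In SUN 51 were positive and 21 negative, with 8 at that level (11.1%, against 6.18% of all genes). In FLX minus SUN 30 were positive and 42 negative, with 1 at that level (1.39%, against 2.09%). Of all 15216 genes, 7727 were positive in FLX, 7756 in SUN and 7435 in FLX minus SUN. All genes had medians of 0.0011 in FLX, 0.0025 in SUN and −0.0029 in FLX minus SUN. Values of single genes below are means ± SD with n = 4, and none of them passed (adjusted p of 0.799 or more in limma).

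Regulators of desaturase genes (21 of 21 measured) had medians of −0.0043 in FLX, 0.029 in SUN and −0.00060 in FLX minus SUN. SREBF1, which encodes SREBP-1, stood at −0.55, −0.26, −0.39 and −0.038 in FLX replicates, with a mean of −0.31 ± 0.22. All 4 were negative, as were 5.36% of all genes in FLX, and replicate 4 was nearest to 0. The same held for FADS2 and for the list genes MLX and ACACB, and a link between these genes was not tested. Over the alternatives other than left-out replicates the FLX mean of SREBF1 ran from −0.57 to −0.049. In SUN SREBF1 stood at −0.38, 0.31, −0.31 and −0.43 (−0.20 ± 0.34), a comparison chosen after its values were seen. Its signs there differed from those of FADS2 at numbers 1 and 4. MLX, a partner of the carbohydrate-responsive factor ChREBP, stood at −0.11 ± 0.055 in FLX and −0.15 ± 0.058 in SUN, negative in 4 of 4 replicates of both, as were 5.36% of all genes in FLX and 6.85% in SUN. SCAP, the escort of SREBPs, stood at −0.26 ± 0.16 in SUN. Over the alternatives other than left-out replicates MLX ran from −0.28 to 0.054 in FLX and from −0.27 to −0.037 in SUN. SCAP ran from −0.48 to −0.051 in SUN over the same alternatives. MBTPS2, the protease that makes the second cleavage of SREBPs, stood at −0.36 ± 0.18 in FLX minus SUN, and PPARA, a receptor for fatty acids, at 0.087 ± 0.16. MBTPS2 was at 0.34 ± 0.29 in SUN, named after its values were seen.

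Electron supply was measured by 4 of 6 genes, with medians of 0.021 in FLX, 0.14 in SUN and −0.10 in FLX minus SUN. CYB5B, the outer mitochondrial cytochrome b5, stood at 0.077 ± 0.17 in FLX and 0.29 ± 0.22 in SUN, positive in 4 of 4 SUN replicates (as were 6.55% of all genes), with a difference of −0.21 ± 0.29. CYB5R3 stood at −0.050 ± 0.20 in FLX and 0.25 ± 0.45 in SUN, with a difference of −0.30 ± 0.41. CYB5R1, named after its values were seen, went the other way, with means of −0.27 in SUN and 0.29 in the difference. Other membrane desaturases and related oxidases (7 of 8 measured) had medians of −0.033 in FLX, 0.094 in SUN and −0.078 in FLX minus SUN. SC5D, the sterol desaturase, stood at 0.23 ± 0.33 in SUN and −0.31 ± 0.25 in the difference. FADS6 stood at 0.079 ± 0.074 in FLX and 0.090 ± 0.11 in the difference, FA2H, which hydroxylates fatty acids, at −0.038 ± 0.068 in FLX, and PEDS1, the plasmalogen desaturase, at 0.094 ± 0.16 in SUN.

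Elongation enzymes (11 of 13 measured) had medians of −0.019 in FLX, 0.038 in SUN and −0.067 in FLX minus SUN. ELOVL1, an elongase of saturated and monounsaturated chains, stood at 0.68, 1.28, −0.37 and 0.39 in SUN replicates (0.49 ± 0.69), and its difference was −1.55, −1.14, −0.37 and −0.14 at numbers 1 to 4 (−0.80 ± 0.66). It was lower in FLX at each number, as were FADS2 and 7.08% of all genes. Over the alternatives other than left-out replicates the ELOVL1 difference ran from −1.34 to −0.26. HACD3 of this list, named after its values were seen, had a mean difference of 0.41. ELOVL4 stood at 0.22 ± 0.31 in SUN, HACD2, a dehydratase of the elongation cycle, at −0.33 ± 0.32 in the difference, and ELOVL3 and HACD4 at 0.083 ± 0.16 and 0.10 ± 0.20 in FLX. The genes that build the SCD substrates (8 of 8 measured) had medians of −0.0096 in FLX, 0.063 in SUN and −0.071 in FLX minus SUN. All 8 had positive SUN means, as had 7756 of all 15216 genes. ACLY, which makes cytosolic acetyl-CoA, stood at 0.23 ± 0.20 in FLX. ACACB, an acetyl-CoA carboxylase, stood at −0.048 ± 0.024 in FLX, 0.066 ± 0.047 in SUN and −0.11 ± 0.062 in the difference, and ACSS2, which activates acetate, at 0.14 ± 0.23 in SUN and −0.13 ± 0.17 in the difference.

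Acyl-CoA synthetases (5 of 5 measured) had medians of −0.0058 in FLX, 0.0046 in SUN and −0.021 in FLX minus SUN. ACSL6 stood at 0.50 ± 0.75 in SUN and −0.44 ± 0.41 in the difference, ACSL1 at −0.26 ± 0.15 in SUN and 0.20 ± 0.33 in the difference, and ACSL4, which prefers arachidonic acid, at 0.072 ± 0.20 and ACSL5 at −0.026 ± 0.030 in FLX. Acyltransferases of phospholipids (7 of 8 measured) had medians of 0.0035 in FLX, 0.042 in SUN and 0.020 in FLX minus SUN. LPCAT3, which places polyunsaturated chains in phosphatidylcholine, stood at 0.50, 0.18, −0.041 and 0.57 in FLX replicates (0.30 ± 0.28), with a difference of 0.26 ± 0.16 that was positive at 4 of 4 numbers. A positive difference at 4 of 4 numbers was found for 6.41% of genes. LPCAT2 stood at 0.091 ± 0.34 in FLX, LPCAT4 at −0.088 ± 0.24 in SUN, and MBOAT1 at 0.11 ± 0.13 in SUN and −0.14 ± 0.17 in the difference.

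Peroxisomal genes that finish docosahexaenoic acid (4 of 6 measured) had medians of 0.036 in FLX, 0.078 in SUN and −0.042 in FLX minus SUN. HSD17B4, the bifunctional enzyme, stood at 0.17 ± 0.15 in FLX, 0.42 ± 0.52 in SUN and −0.25 ± 0.38 in the difference. ACAA1, the thiolase, stood at −0.29 ± 0.51 in FLX and −0.31 ± 0.42 in SUN, and SCP2 at −0.082 ± 0.30 in the difference. Of the genes beside the FADS cluster, 5 of 6 were measured, with medians of 0.040 in FLX, 0.042 in SUN and 0.0039 in FLX minus SUN. TMEM258 stood at 0.30 ± 0.26 in SUN and −0.35 ± 0.37 in the difference, FTH1, the ferritin heavy chain, at 0.21 ± 0.21 in FLX and 0.46 ± 0.53 in SUN, and BEST1 at 0.053 ± 0.11 in FLX. RAB3IL1, next to FADS3 in assembly ARS-UCD2.0, stood at 0.11 ± 0.10 in the difference and, named after its values were seen, at −0.13 ± 0.11 in SUN. At number 3 in SUN, where FADS2 and FADS3 EMBV3_19333 were at −0.76 and −1.16, TMEM258 was at 0.54 and FTH1 at −0.056.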

How the data were processed

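Antisense RNA of bovine blastocysts was labelled with Cy3 and Cy5 and hybridised to 2-colour arrays, per the labels' protocols. Each probe of each array had 1 deposited value, a log2 ratio, and how the authors normalised it is not stated in the labels. Base and direction (Cy5 over Cy3) are assumptions. Of 43794 probes, 21790 had 1 symbol in the platform table, 0 had several and 22004 had none. Symbols of 1524 probes were updated through the RefSeq gene table of assembly ARS-UCD2.0. Arrays were turned to diet over CAN, an array and its exchange were averaged, and a gene's probes were averaged. One model in limma 3.58.1 (R 4.3.3, statmod 1.5.0; lmFit and eBayes, 6 residual degrees of freedom) over the 8 replicate values estimated both diets against CAN and their difference. Its p-values were two-sided, with Benjamini-Hochberg adjustment over 15216 genes or 43794 probes. The labels call the replicates biological, and p-values measure the spread between them. The script was tested on simulated data. Tables and figures were made in Python 3.11.15 (pandas 2.3.3, numpy 2.4.6, matplotlib 3.10.9).

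FLX and SUN replicates of 1 number share a CAN name, and their deviations from the group means correlated over all probes at 0.421, 0.576, 0.537 and 0.41, so the numbers were taken as pairs. The fit without the block is given first. The error of a replicate from exchanged dyes is the SD of the difference between both arrays divided by 2, pooled within diets, with the mean dye bias removed.

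Named were all 5 desaturases and, from each of 9 pathway lists, the 2 genes of smallest unadjusted p per comparison, with 3 nearest patterns per desaturase. The members and lists were chosen with earlier results of these data known. Alternatives were centring and scaling of arrays, 1 dye orientation, each diet alone, robust eBayes, left-out replicates, the replicate number or slide as a block, an array-level fit with a dye term, the median of probes and symbols as listed.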

Additional observations from a re-analysis of the deposited data

Results flagged for a closer look

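Among 81 groups of 4 values checked, 3 had 1 value far from the others, where chance gives about 1 in 20. FLX replicate 4 of FADS3 probe EMBV3_19333 stood at 0.155, against −0.80 to −0.65 in the other FLX replicates. In FLX minus SUN, ACSL6 stood at 0.167 at number 3, against −0.68 to −0.61 at the other numbers, and CYB5B stood at −0.635 at number 2, against −0.093 to −0.029.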

How the results depend on the processing

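No desaturase was called by limma under any alternative run. FADS2 kept its sign in all 23 alternatives in FLX (−0.78 to −0.35) and in SUN (0.016 to 0.67), and in all 22 in FLX vs SUN (−1.23 to −0.58). Over 20 results of the 5 genes, 415 alternatives gave 28 changes of sign, none of a called value. The cause of these changes was not tested. With the replicate block the FADS2 difference had an adjusted p = 0.840 in limma, and the block changed no call of a desaturase.

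Leaving out replicates gave these ranges for gene means. FADS1 ran from −0.16 to 0.14 in FLX, −0.018 to 0.30 in FLX vs SUN and −0.17 to 0.021 for both diets. FADS2 ran from −0.34 to 0.11 for both diets, and FADS3 from −0.38 to 0.024 in FLX vs SUN and −0.18 to 0.13 in SUN. SCD ran from −0.25 to 0.0081 in FLX, −0.031 to 0.80 in SUN and −0.11 to 0.40 for both diets, and SCD5 from −0.29 to 0.022 in FLX and −0.019 to 0.40 for both diets. Probe EMBV3_22383 of FADS1 ran from −0.32 to 0.25 in FLX and −0.037 to 0.59 in FLX vs SUN. Probe EMBV3_38167 ran from −0.023 to 0.024 in FLX, −0.045 to 0.030 in FLX vs SUN and −0.023 to 0.048 in SUN. Probe EMBV3_13768 of FADS3 ran from −0.090 to 0.082 in FLX, −0.10 to 0.080 in FLX vs SUN and −0.017 to 0.050 in SUN, and EMBV3_19333 from −0.37 to 0.21 in SUN. Among list genes CYB5R3 ran from −0.13 to 0.026 and LPCAT2 from −0.067 to 0.20 in FLX, SCP2 from −0.22 to 0.081 in FLX vs SUN and LPCAT4 from −0.15 to 0.017 in SUN.

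Arrays with CAN in Cy5 alone gave −0.16 for EMBV3_22383 and −0.31 for EMBV3_13768 in FLX, −0.14 for EMBV3_13768 in SUN, and −0.075 in FLX and −0.024 in FLX vs SUN for the FADS1 mean. In FLX they gave 0.039 for ACACB, 0.029 for CYB5R3, −0.025 for ELOVL3, 0.049 for FA2H, −0.16 for LPCAT2 and 0.054 for MLX. Arrays with CAN in Cy3 alone gave −3.0e-05 in FLX, 0.080 in FLX vs SUN and −0.080 in SUN for EMBV3_38167, 0.15 in FLX vs SUN for EMBV3_13768, 0.017 in SUN for the FADS3 mean and −0.025 for SCD over both diets. They gave 0.055 for ACSL5 in FLX, −0.022 for PPARA and −0.11 for RAB3IL1 in FLX vs SUN, and −0.021 for ACACB and −0.076 for PEDS1 in SUN. Between-array scaling gave 0.0081 in FLX vs SUN and −0.0037 in SUN for EMBV3_38167 and −0.0099 in FLX for EMBV3_13768.

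At an adjusted p under 0.05 the array-level fit with a dye term called 5 genes and 1 probe in SUN, CAN in Cy5 alone called 1 probe in FLX and 2 in SUN, and left-out replicates called 0 to 2 probes in SUN. At an unadjusted p under 0.05 the count of genes in FLX was 480, against 1901 with CAN in Cy3 alone, 1027 with CAN in Cy5 alone, 788 without FLX replicate 4 and 732 without number 4. In SUN it was 941, against 2093, 1973, 588 without SUN replicate 2, 557 without number 2, 1707 without SUN replicate 3 and 1726 without number 3. In FLX vs SUN it was 318, against 688, 627, 794 without SUN replicate 3, 202 without number 2, 520 without number 3 and 853 with the replicate block. Over both diets it was 547, against 1839, 1369 and 1018 without number 3. Of 51 list medians, 19 moved under some alternative by more than the SD of the list's 4 replicate medians. That SD can be wide: with replicates left out, the desaturase median in FLX vs SUN, counted as not moved, ran from −0.90 to −0.074, and the trophectoderm median in SUN from −0.013 to 0.30. Each slide held 1 diet, so slide and diet cannot be fully told apart. The files give no signal over background, and 4 replicates limit what could be called.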
